A study of Gallus gallus with 12 samples.

Results

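The genes described here are factors that pattern the dorsal neural tube: the zinc finger genes ZIC1 and ZIC2, the homeobox genes MSX1, MSX2, DLX5 and LMX1A, the paired box genes PAX3 and PAX7, and the secreted signal GDF7. They were followed through every probe set, the group of probes that reads a transcript on an Affymetrix array, whose platform annotation gives a single symbol and that symbol is theirs. Of the 9 genes, 7 had such a probe set and 3 of those had 2, which makes 10 probe sets among 37693 tested. LMX1A and GDF7 had none with their symbol and were not analysed here. A further probe set is annotated to ZIC4 and ZIC1 together and was not used.

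Early in neural tube development, BMP and WNT proteins from the surface ectoderm and then from the roof plate act on the dorsal cells. Dorsal progenitors respond with MSX, ZIC and PAX factors, which mark the roof plate, the neural crest precursors and the progenitors of dorsal interneurons. ZIC1 and MSX1 are also known for holding dorsal cells in the progenitor state, and the proneural factor NEUROG2 is known for driving progenitors out of it.

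Chick embryos incubated for 40 hours at 37 °C, given as embryonic day 1.5, had 13 to 15 somites (stage HH10, given as HH11 in another label). They received a plasmid in the neural tube by in ovo electroporation. The GFP-positive cells of 20 pooled neural tubes were sorted 6 hours later for each array. Every plasmid carried GFP: the control plasmid alone, a second one with NEUROG2, and the third with NEUROG2AQ, a form for which the labels give only the name and which in other work carries a changed DNA-binding basic region. Each group had 4 biological replicates, a number that limits how precise any value can be. The sort took GFP-positive cells of any position in the tube, and in such a mixed sample fewer dorsal cells and less RNA per dorsal cell cannot be told apart.

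All 12 pan-neural progenitor genes measured, SOX2 and NES among them, lay above the array median on every array. Control replicate 1 and NEUROG2AQ replicate 4 stood apart on the second principal component, at -52.28 and -30.20, and control replicate 1 had the highest mean log2 signal over 11 somite and mesoderm markers, 3.81 against 2.86 to 3.25 in the other controls. Control replicate 4 had the highest mean over 11 blood and endothelial markers, 3.83 against 2.67 to 3.22. The array's NEUROG2 probe set read 5.57 ± 0.36 (mean log2 signal ± SD, n = 4) in control arrays, 3.90 ± 0.17 with NEUROG2 and 4.64 ± 0.10 with NEUROG2AQ, lowest where the gene was added. The labels do not give the inserted sequence, so whether this probe set reads the plasmid is unknown and it does not check the groups. Values below are deposited log2 signals, on which a difference of 1 is a factor of 2, and array medians were 2.81 to 2.90. Differences between groups are log2 values ± SE from limma, a linear model fitted to every probe set, with p-values adjusted by Benjamini-Hochberg over all of them and a threshold of 0.05.

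**Figure D1:**
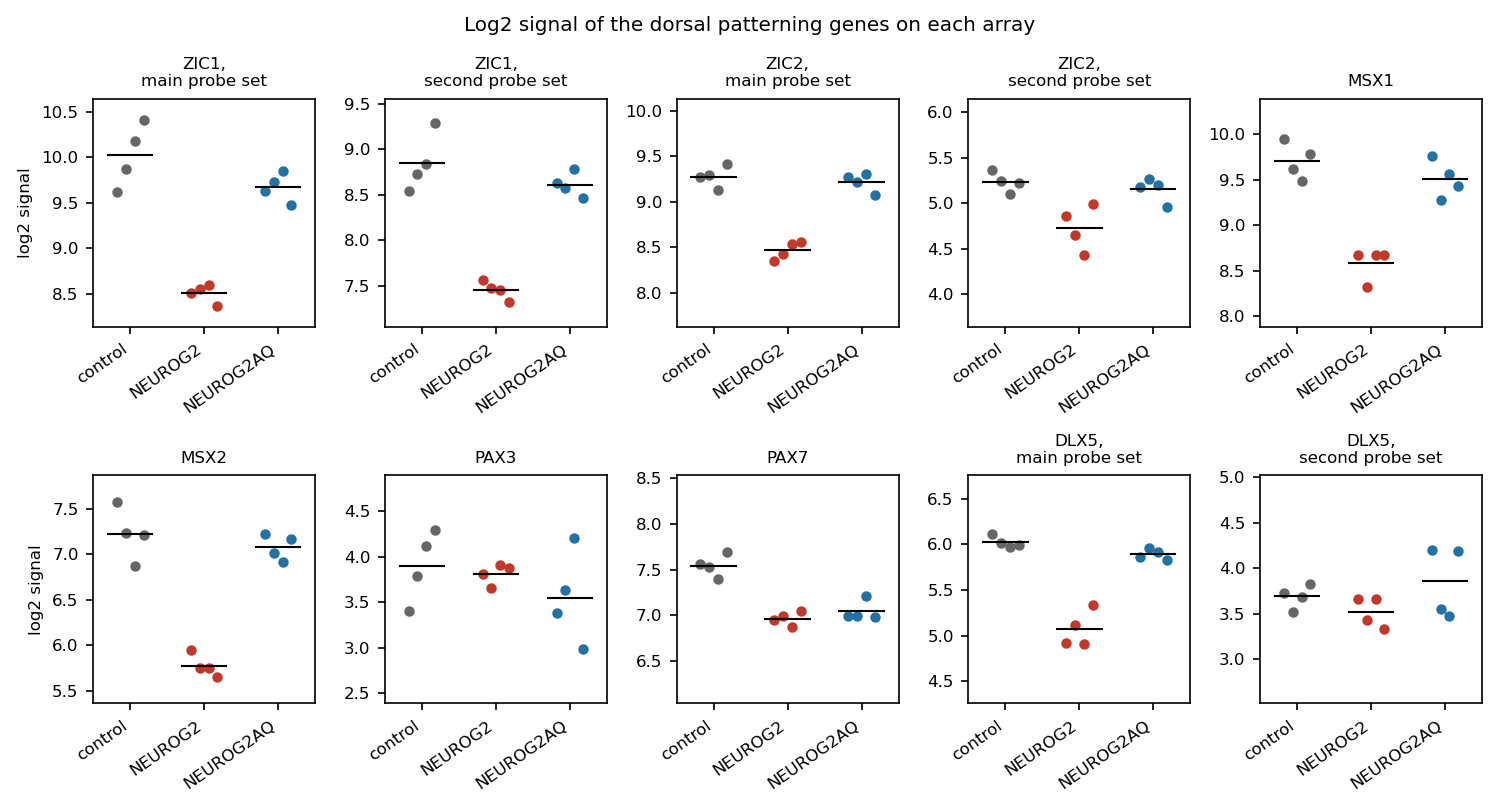
Log2 signal (y axis, each panel spanning the same number of log2 units) of the 10 probe sets on each of the 12 arrays, with 4 points per group in replicate order and a bar at the group mean. NEUROG2 arrays lie below every control array for ZIC1, ZIC2, MSX1, MSX2, PAX7 and the main DLX5 probe set, and NEUROG2AQ arrays do so for PAX7 and, by a margin of 0.0019, for the main DLX5 probe set.

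With NEUROG2, 6 of the 7 measured genes had a lower signal than in control at 6 hours, the only time sampled. A fall or rise here means a lower or higher signal than in the arrays compared, not a change over time. PAX3, whose only probe set was low at a mean of 3.90 in controls, did not pass. Counted by probe set, 8 of 10 were lower at an adjusted p under 0.05 and none was higher, where 3.38% of all tested probe sets were lower and 3.3% higher. Counted by gene, with each gene read by its brightest probe set on average over the 12 arrays (its main probe set), 6 of 7 were lower against 5.37% of 13008 genes. These shares take in dim probe sets, while the 6 genes read 6.02 to 10.02 in controls against array medians of 2.81 to 2.90. The share among probe sets of like signal was not tested. The median log2 difference was -0.95 over the 7 genes and 0.01 over all genes. In all 8 lowered probe sets the 4 NEUROG2 arrays lay below the 4 controls, a separation found for 5.43% of all probe sets.

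ZIC1, a zinc finger factor of dorsal progenitors and of the neural plate border, fell the most. Its main probe set read 9.62, 9.88, 10.18 and 10.41 in control replicates 1 to 4, and 8.51, 8.56, 8.60 and 8.37 in the NEUROG2 arrays. The controls were more spread out than the NEUROG2 arrays, and the groups lay 1.02 apart at their nearest arrays. The difference was -1.51 ± 0.15 (n = 4 per group, adjusted p = 8.68e-06) or 2.86-fold. Ranked from the lowest difference, ZIC1 was number 20 of 13008 genes. The second ZIC1 probe set fell by 1.40 ± 0.14 (adjusted p = 9.71e-06), from 8.85 ± 0.32 (SD, n = 4) to 7.45 ± 0.10. Control replicate 1 was the lowest control for both probe sets and control replicate 4 the highest.

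ZIC2, its paralog, is active in the dorsal neural tube and in early neural plate. Its main probe set read 9.28, 9.29, 9.13 and 9.41 in the controls and 8.35, 8.42, 8.54 and 8.56 in the NEUROG2 arrays. No NEUROG2 array reached the lowest control, and the difference of -0.81 ± 0.10 (adjusted p = 7.27e-05) left 57.1% of the control signal. The second ZIC2 probe set, at 5.23 ± 0.11 (SD, n = 4) in controls, fell by 0.50 ± 0.12 (adjusted p = 0.0217). That call was lost on leaving out any of 4 arrays (control replicates 2 and 4, NEUROG2 replicates 2 and 3), where adjusted p reached 0.0760.

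The MSX genes encode homeodomain repressors that BMP signals induce in the dorsal midline. MSX2 read 7.57, 7.24, 6.87 and 7.21 in control arrays and 5.95, 5.75, 5.75 and 5.66 in NEUROG2 arrays. The highest NEUROG2 array lay 0.92 under the lowest control. MSX2 fell by 1.45 ± 0.13 (adjusted p = 5.20e-06), to 36.7% of the control signal, and was number 25 in that ranking. MSX1 read 9.95, 9.61, 9.49 and 9.78 in controls and 8.67, 8.32, 8.68 and 8.67 in NEUROG2 arrays. It fell by 1.12 ± 0.13 (adjusted p = 5.82e-05), to 46.0% of the control signal. The name of its only probe set ends in "s_at", which Affymetrix gives to probes that match more than a single transcript. Control replicate 1 was the highest control for MSX1 and MSX2, where it was the lowest for ZIC1.

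DLX5, a homeobox gene of the neural plate border, the ectoderm and migrating crest, was read by probe sets that differed from each other. The main one read 6.11, 6.02, 5.97 and 5.99 in controls, 4.92, 5.12, 4.90 and 5.33 in NEUROG2 arrays, and fell by 0.95 ± 0.10 (adjusted p = 2.98e-05). The second one read 3.69 ± 0.13 in controls and 3.52 ± 0.17 in NEUROG2 arrays (SD, n = 4), with overlapping groups. Its difference was -0.17 ± 0.16 (adjusted p = 0.695), with a 95% interval from -0.51 to 0.18. That interval does not reach the fall seen by the main probe set. The second probe set was the dimmer, however, at 3.69 in controls against array medians of 2.81 to 2.90. Whether it can read such a fall was not tested.

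The paired box genes PAX3 and PAX7 encode closely related factors of the dorsal neural tube, the neural crest and the somite. PAX7 read 7.56, 7.52, 7.39 and 7.70 in controls and 6.95, 6.99, 6.87 and 7.04 in NEUROG2 arrays, without overlap. It fell by 0.58 ± 0.10 (adjusted p = 0.00132), to 66.9% of the control signal. PAX3 read 3.41, 3.79, 4.11 and 4.29 in controls, and the NEUROG2 arrays, at 3.80, 3.65, 3.91 and 3.88, lay within that range. Its difference was -0.09 ± 0.22 (adjusted p = 0.905), with a 95% interval from -0.56 to 0.38, whose lower end lies just short of the fall of PAX7. Without control replicate 4 the PAX3 difference changed sign, to 0.04. PAX3 read 3.90 ± 0.39 (SD, n = 4) in controls, the widest control spread of the 10 probe sets, against array medians of 2.81 to 2.90. Whether its probe set can read a fall was not tested.

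**Figure D2:**
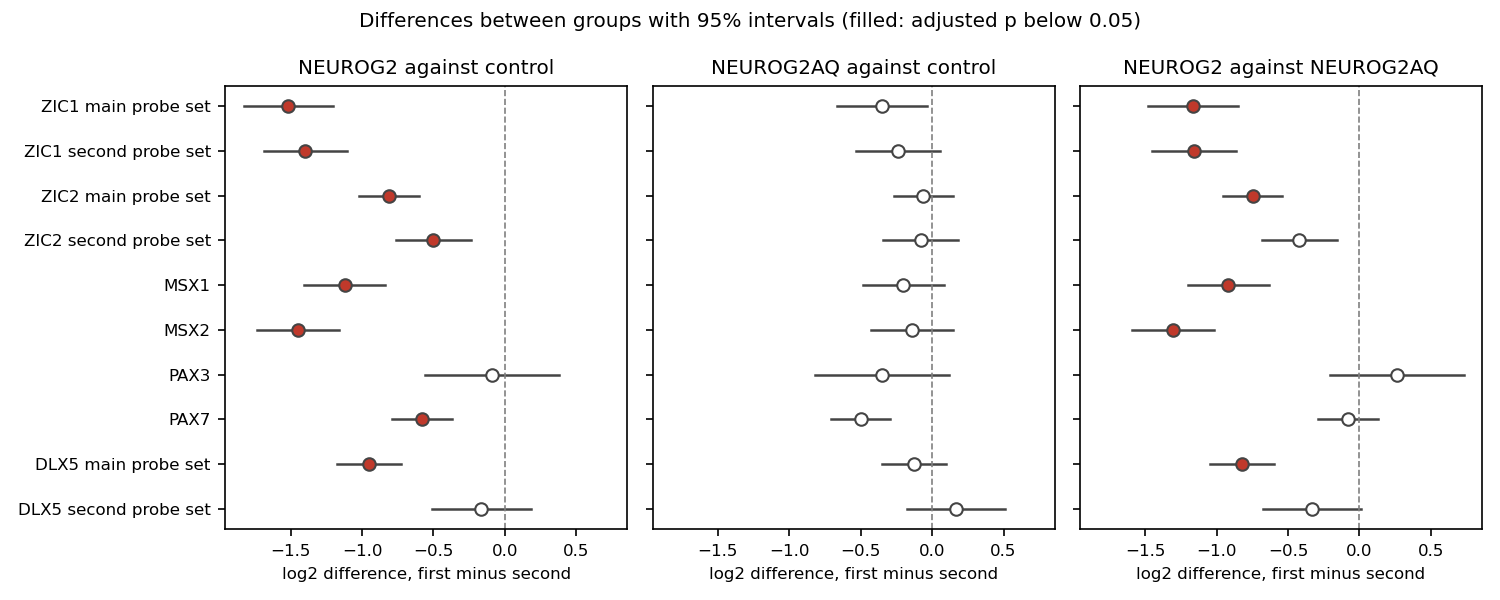
Log2 difference between groups (x axis) for the 10 probe sets (rows) in the 3 comparisons, as limma estimates with 95% intervals and filled points for an adjusted p below 0.05. The first panel has 8 filled points, the NEUROG2AQ panel has none, and the last panel has 6, with PAX7 near 0 there at -0.08.

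NEUROG2AQ was compared with the same 4 control arrays, so its differences share the controls' spread with those of NEUROG2. None of the 10 member probe sets passed the adjusted threshold in limma, where 0.0663% of all probe sets did. At an unadjusted p under 0.05 there were 2, PAX7 and the main ZIC1 probe set, where 6.89% of all probe sets met that limit. Groups lay apart, with NEUROG2AQ lower, for 2 of 10, where 2.28% of all probe sets did so. The 7 genes all had negative differences by their main probe sets, with a median of -0.20 against 0.01 over all genes.

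PAX7 had the largest difference of the members with NEUROG2AQ. The 4 arrays read 6.99, 6.99, 7.22 and 6.98, all below the lowest control at 7.39. The difference was -0.50 ± 0.10, with a 95% interval from -0.71 to -0.29, and did not pass (adjusted p = 0.0903). Of 22 alternative settings PAX7 passed in 1, where the probe sets of each gene were averaged and fewer features were tested (adjusted p = 0.0440), and elsewhere adjusted p reached up to 0.288. The gene's value was much the same over these settings, from -0.56 to -0.45.

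The other members had smaller differences from control with NEUROG2AQ. ZIC1 read 9.63, 9.73, 9.85 and 9.48 and differed from control by -0.35 ± 0.15 (adjusted p = 0.677), within the control range but for replicate 4. ZIC2, at 9.27, 9.21, 9.31 and 9.07, differed by -0.06 ± 0.10 (adjusted p = 0.949). MSX1, at 9.76, 9.27, 9.56 and 9.43, differed by -0.20 ± 0.13, and MSX2, at 7.23, 7.01, 6.92 and 7.17, differed by -0.14 ± 0.13. These intervals exclude falls of the size seen with NEUROG2: their lower bounds were -0.66 for ZIC1, -0.27 for ZIC2, -0.48 for MSX1 and -0.43 for MSX2. DLX5 read 5.86, 5.96, 5.92 and 5.83 by its main probe set, narrowly below the controls, and differed by -0.13 ± 0.10 (adjusted p = 0.878). By its second probe set it differed by 0.17 ± 0.16, with replicates 1 and 4 at 4.20 and 4.19 and the others at 3.55 and 3.48. PAX3 had its widest spread here, at 3.38, 3.63, 4.20 and 2.99, and differed by -0.35 ± 0.22 (adjusted p = 0.828).

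The NEUROG2 arrays were also set directly against the NEUROG2AQ arrays, a comparison of both forms whose protein levels are not known here. Of the 10 probe sets 6 were lower with NEUROG2 and none was higher, where 2.39% of all probe sets were lower and 3.67% higher. They belong to ZIC1, ZIC2, MSX1, MSX2 and DLX5. The largest differences were those of MSX2 (-1.30 ± 0.13, adjusted p = 1.27e-05) and ZIC1 (-1.17 ± 0.15 by the main and -1.16 ± 0.14 by the second probe set). MSX1 differed by -0.92 ± 0.13, DLX5 by -0.82 ± 0.10 and ZIC2 by -0.75 ± 0.10, with adjusted p-values of 0.000330, 0.000108 and 0.000135. For all 6 probe sets the NEUROG2 arrays lay below the NEUROG2AQ arrays, where 5.99% of all probe sets were so separated. The second ZIC2 probe set missed the threshold (-0.42 ± 0.12, adjusted p = 0.0597).

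PAX7 was not among these 5 genes. Its signal in NEUROG2 and NEUROG2AQ arrays differed by -0.08 ± 0.10 (adjusted p = 0.786), with a 95% interval from -0.29 to 0.13. The arrays of both expression plasmids lay below all controls, and the ranges of 6.87 to 7.04 and 6.98 to 7.22 overlapped. PAX3 differed by 0.26 ± 0.22 (adjusted p = 0.654), with a 95% interval from -0.21 to 0.73, and by 0.07 without NEUROG2AQ replicate 4.

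Because ZIC1 and ZIC2, MSX1 and MSX2, and PAX3 and PAX7 are paralog pairs, the log2 difference between the main probe sets of each pair was taken within every array. It cancels whatever shifts a whole array, and a change of it means that the signals of the paralogs moved unequally. ZIC1 minus ZIC2 was 0.75 ± 0.34 (SD, n = 4) in control arrays, 0.04 ± 0.16 with NEUROG2 and 0.46 ± 0.09 with NEUROG2AQ. The NEUROG2 arrays, from -0.19 to 0.16, lay below all others (two-sided exact permutation p = 0.0286 against control and 0.0286 against NEUROG2AQ), the smallest p that 4 against 4 arrays allow. After adjustment over 9 tests, 3 pairs in 3 comparisons, these were 0.103. With that smallest p, adjustment over 9 tests can reach 0.05 only if most of the 9 are at it, so a miss says little about whether the paralogs fell unequally. MSX1 minus MSX2 was 2.48 ± 0.12 in control and 2.81 ± 0.20 in NEUROG2 arrays (SD, n = 4) (exact p = 0.0571, adjusted 0.103). PAX3 minus PAX7 was -3.64 ± 0.39 and -3.15 ± 0.15 (SD, n = 4) in the same groups (exact p = 0.0571, adjusted 0.103). PAX3 had the lowest signal of the paired genes, and probes of different genes need not respond alike. No pair passed in any of the 3 comparisons.

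**Figure D3:**
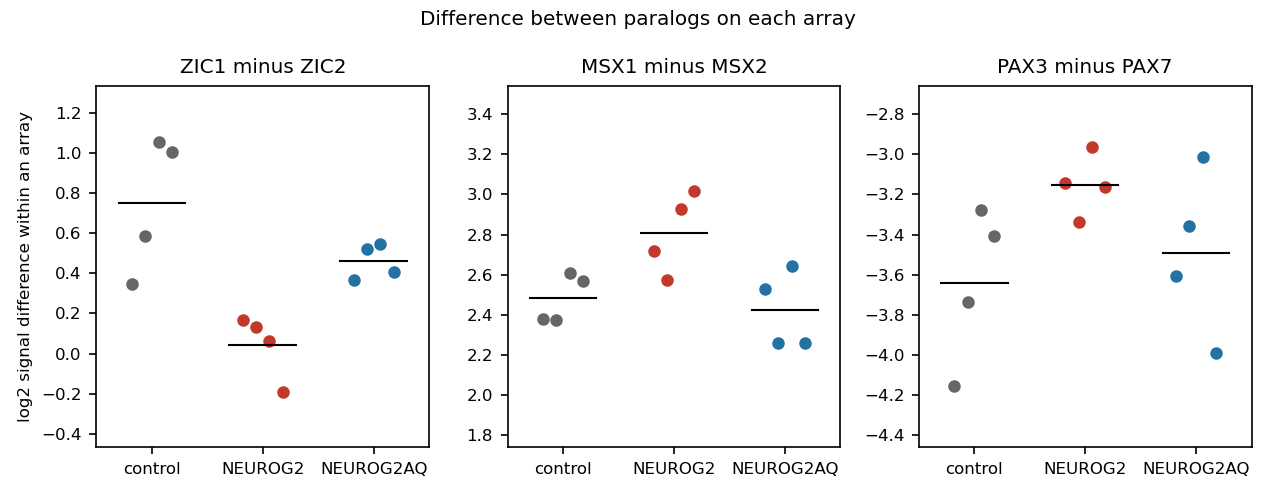
Log2 signal difference between paralogs within each array (y axis, equal spans), with 4 points per group in replicate order and a bar at the mean. ZIC1 minus ZIC2 is lowest in the 4 NEUROG2 arrays, from -0.19 to 0.16, while the groups overlap for MSX1 minus MSX2 and for PAX3 minus PAX7.

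For each of the 6 genes that passed in some comparison, the genes with the most similar course over the 12 arrays were found by the root mean square difference of log2 signals, each centred on its gene's own mean. For ZIC1 these were SEMA3D (0.177), TSHZ3 (0.193) and WNT3A (0.197), the last a dorsal midline signal. ZIC2 and DLX5 were near each other (0.131), with DLX5 the second nearest of ZIC2 and ZIC2 the nearest of DLX5. RGCC was the nearest gene of ZIC2 (0.129) and of MSX1 (0.161), and the HES family gene HES4 lay as near to MSX1 (0.161). For MSX2 they were the S phase enzyme gene TK1 (0.171), HOXA4 (0.188) and CENPL (0.192). PAX7 had TTC4 (0.134), COL11A1 (0.135) and PEX5 (0.137) nearest, whose log2 differences from control were -0.52, -0.40 and -0.40 with NEUROG2 and -0.38, -0.36 and -0.31 with NEUROG2AQ. The remaining neighbours were KLF10 (0.131) of ZIC2, PPRC1 (0.175) of MSX1, and RAD52 (0.135) and SOAT1 (0.140) of DLX5.

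The signals and the BMP pathway that act on the members were read from fixed lists, in which a gene again stands for its main probe set. The background with NEUROG2 was 5.37% of genes lower and 5.21% higher. Of 12 dorsal midline and patterning signals measured, 2 fell and 10 did not pass, and the median was -0.26. They were WNT4 (-1.77 ± 0.13) and WNT3A (-1.27 ± 0.13), and both WNT3A probe sets passed. The BMP ligands did not pass: BMP7 differed by -0.42 ± 0.17 and BMP5 by -0.80 ± 0.27 (adjusted p = 0.212 and 0.0998). BMP7 passed when its probe sets were averaged (adjusted p = 0.0159), and its other probe sets, at -0.53 and -0.31, did not pass. BMP5 passed without control replicate 1 (adjusted p = 0.0249), while its other probe sets lay at 0.0033 and 0.024.

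Of 19 BMP receptors, SMADs, feedback genes and antagonists, 4 rose, 4 fell and 11 did not pass, with a median of -0.04. BAMBI, a decoy receptor that BMP signals induce, rose from 7.41 to 10.33, by 2.92 ± 0.13 (adjusted p = 5.05e-09). ID1, a common target of BMP signals, rose by 1.75 ± 0.13. The receptor gene BMPR1B fell by 1.35 ± 0.21 and the inhibitory SMAD7 by 1.06 ± 0.18, although 2 other SMAD7 probe sets, at -0.12 and -0.12, did not pass. The other listed genes past the threshold, named after their values were seen, were ID4 (0.80 ± 0.12) and ID2 (0.40 ± 0.10), which rose, and ID3 (-0.84 ± 0.14) and NOG (-0.59 ± 0.15), which fell. Of the other ID2 probe sets, that at 0.52 passed and those at 0.21 and 0.49 did not. The ID2 call was lost on leaving out any of 6 arrays (control replicates 2 to 4, NEUROG2 replicates 1 to 3), where adjusted p reached 0.0876. The NOG call was lost on leaving out any of 4 (control replicate 2, NEUROG2 replicates 2 to 4), where it reached 0.0919. With NEUROG2AQ no gene of these lists passed, where 0.108% of genes did in either direction. BMP5 had the largest difference, at -0.63 ± 0.27 (adjusted p = 0.681). Of the 19, ID3 and ID4 had the largest, each at -0.61 (adjusted p = 0.239 and 0.0920). ID4 passed in 1 of 22 alternative settings, the limma fit with trend and robust (adjusted p = 0.0385). BAMBI, which rose with NEUROG2, differed by -0.58 ± 0.13 with NEUROG2AQ (adjusted p = 0.191), with all 4 arrays below the controls. ID1, ID2, ID3 and ID4 were separated in the same way, where 2.28% of all probe sets were. The median of the 19 with NEUROG2AQ was -0.27, and 17 differences were negative. Against NEUROG2AQ, 4 of the 19 rose with NEUROG2 and 2 fell, where 9.69% of genes passed in either direction, with BAMBI at 3.50 ± 0.13 and ID1 at 2.19 ± 0.13.

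**Figure D4:**
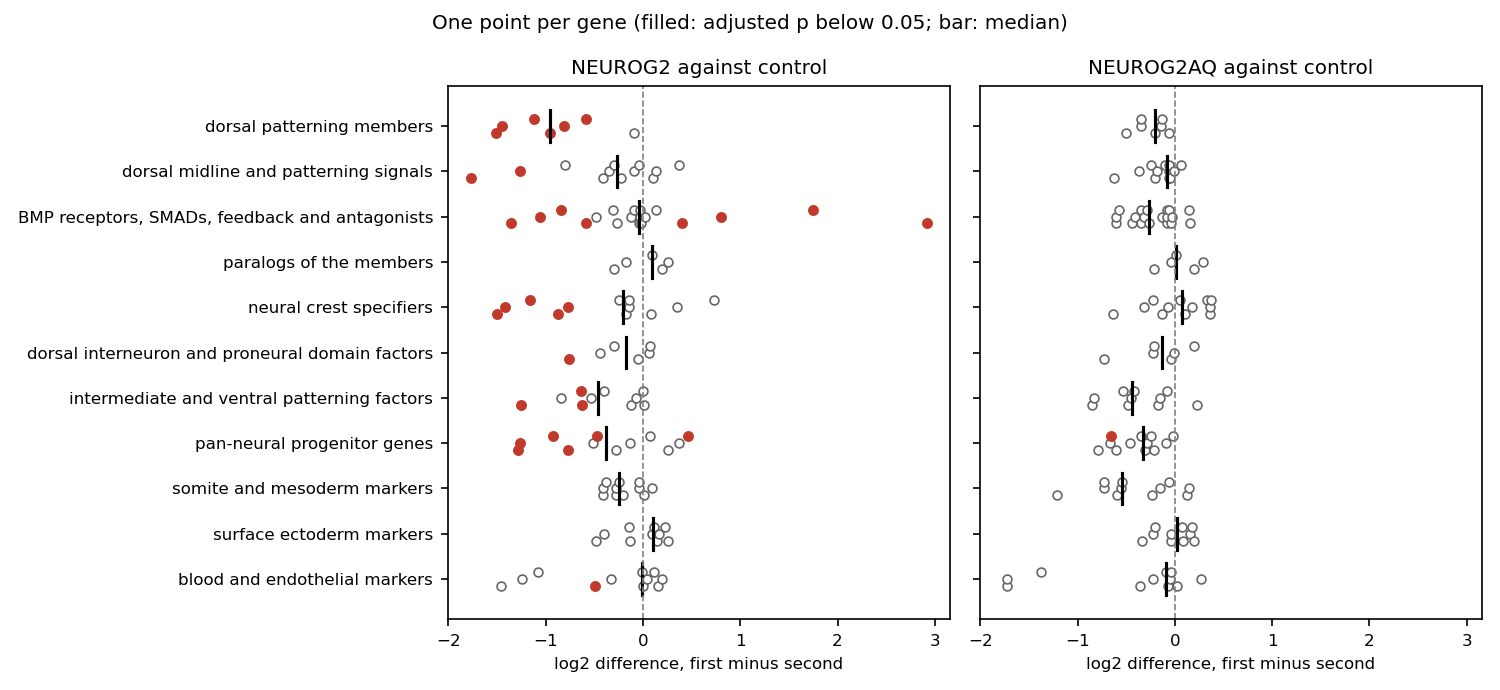
Log2 difference from control (x axis) of each measured gene, by list (rows), for NEUROG2 and NEUROG2AQ, with filled points for an adjusted p below 0.05 and a bar at the median of the list. The dorsal patterning members have 6 filled points and a median of -0.95 in the NEUROG2 panel, and the NEUROG2AQ panel has a single filled point, the progenitor gene NOTCH1.

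Other patterning genes were listed for comparison. Of 12 neural crest specifiers, which several of the members act upstream of, 5 fell with NEUROG2 and 7 did not pass, and the median was -0.21. SOX10 (-1.50 ± 0.16), SNAI2 (-1.41 ± 0.14), RHOB (-1.16 ± 0.12) and LMO4 (-0.88 ± 0.12) fell, and FOXD3 did so by 0.77 ± 0.21 (adjusted p = 0.0369). The FOXD3 call ended in 11 of 22 alternative settings, with an adjusted p of up to 0.130, 9 of which left out an array (control replicates 2 to 4, or replicates 1 to 3 of either other group). A second probe set of SOX10 and of RHOB did not pass. SNAI1 lay the other way, at 0.73 ± 0.21 with NEUROG2 (adjusted p = 0.0532), and passed in 8 of 22 alternative settings, among them the replicate block and without control replicate 1. With NEUROG2AQ none of the 12 passed and their median was 0.08. Against NEUROG2AQ 6 of the 12 were lower with NEUROG2 and 2 higher, SNAI1 (1.37 ± 0.21, adjusted p = 0.000658) and ETS1 (0.49 ± 0.12, adjusted p = 0.0259), though 5 other ETS1 probe sets did not pass.

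Of 10 intermediate and ventral patterning factors and hedgehog pathway genes, 3 fell with NEUROG2 and 7 did not pass, and the median was -0.46. PAX6, of intermediate progenitors, fell by 1.25 ± 0.12, DBX2 by 0.64 ± 0.13 and the hedgehog receptor PTCH1 by 0.63 ± 0.18. The PTCH1 call (adjusted p = 0.0473) ended in 13 of 22 alternative settings, 9 of which left out an array (control replicates 2 to 4, NEUROG2 replicates 1, 3 and 4, NEUROG2AQ replicates 1 to 3), and a second PTCH1 probe set, at 0.02, did not pass. With NEUROG2AQ none of the 10 passed and the median was -0.44. NKX6-2 (-0.85 ± 0.17) and FOXA2 (-0.83 ± 0.25) had the largest differences there, with adjusted p of 0.0960 and 0.428. NKX6-2 passed there with replicate number as a block and without control replicate 4, with an adjusted p down to 0.0349. Of 12 pan-neural progenitor genes 1 rose with NEUROG2 (NOTCH1), 5 fell and 6 did not pass, with a median of -0.38. With NEUROG2AQ the median was -0.33 and all 12 differences were negative, and against NEUROG2AQ 3 were higher with NEUROG2 and none lower, with a median of -0.02. RFX4 (-1.28 ± 0.19), FGFR3 (-1.27 ± 0.23), SOX1 (-0.93 ± 0.11) and SOX2 (-0.77 ± 0.17) had the largest falls, though 1 of 3 other FGFR3 probe sets, at -0.16, did not pass. NOTCH1 rose by 0.46 ± 0.09 with NEUROG2 and fell by 0.66 ± 0.09 with NEUROG2AQ (adjusted p = 0.0140), while its 4 other probe sets passed in neither comparison. Averaging the NOTCH1 probe sets ended both calls, at 0.20 (adjusted p = 0.139) and -0.13 (adjusted p = 0.786). The NOTCH1 call with NEUROG2AQ was also lost with only those 2 groups fitted and without NEUROG2AQ replicate 1, 3 or 4 (adjusted p up to 0.0560). SOX2 differed by -0.79 ± 0.17 with NEUROG2AQ (adjusted p = 0.176).

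Among 5 paralogs of the members, none passed with either plasmid, but 1 to 3 of the 5 lay at or below the array median. LMX1B, the paralog of LMX1A, differed by -0.30 ± 0.11 and DLX6 by 0.26 ± 0.10 with NEUROG2 (adjusted p = 0.147 and 0.164). The DLX6 means, 1.63 in control and 1.89 in NEUROG2 arrays, lay below the array medians, and its other probe set differed by -0.18 without passing. With NEUROG2AQ, DLX1 (0.29 ± 0.16) and ZIC4 (-0.22 ± 0.10) had the largest differences of the 5 (adjusted p = 0.801 and 0.712). Of 17 listed factors of dorsal interneuron and proneural domains only 6 had a probe set, and GBX2 (-0.76 ± 0.12) fell with NEUROG2. None of the 6 passed with NEUROG2AQ, where NEUROG1 had the largest difference (-0.73 ± 0.18, adjusted p = 0.276). The neuronal genes TUBB3 (0.60 ± 0.15) and ELAVL4 (0.44 ± 0.11) rose with NEUROG2. The TUBB3 call was lost on leaving out any of 6 arrays (control replicates 2 to 4, NEUROG2 replicates 1, 3 and 4), where adjusted p reached 0.0916. The ELAVL4 call was lost on leaving out any of 5 (control replicates 1 and 3, NEUROG2 replicates 2 to 4), where it reached 0.0824. A second ELAVL4 probe set, at 0.28, did not pass (adjusted p = 0.489), and averaging both ended the call (adjusted p = 0.111).

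Somites and surface ectoderm also express several of the members, PAX3, PAX7 and ZIC1 in the former and DLX5 and MSX1 in the latter, so their markers were read beside them. The mean log2 signal over 11 somite and mesoderm markers ranged from 2.86 to 3.81 in control, 2.79 to 3.23 in NEUROG2 and 2.59 to 2.92 in NEUROG2AQ arrays, and 4 to 7 of the 11 lay at or below the array median. None passed in any comparison. TWIST1 differed by -0.41 ± 0.46 and FOXC2 by -0.41 ± 0.25 with NEUROG2, and on leaving out each array in turn these ranged from -0.72 to 0.07 and from -0.55 to -0.18. With NEUROG2AQ, TWIST1 ranged from -1.52 to -0.73 and FOXC2 from -0.87 to -0.50 on leaving out each array. The median over the 11 was -0.24 with NEUROG2 and -0.54 with NEUROG2AQ, with 9 differences negative in each. Over 10 surface ectoderm markers, which include DLX3 and DLX6 of the paralog list, the mean ranged from 3.90 to 4.01, 3.70 to 4.16 and 3.88 to 4.07 in the same groups, and none passed. On each array 4 to 5 of these 10 lay at or below the array median. KRT7 (-0.49 ± 0.34) and GATA3 (-0.40 ± 0.15) differed the most with NEUROG2, and GATA3 passed without control replicate 2 (adjusted p = 0.0122). The median over the 10 was 0.10 with NEUROG2, with only 4 differences negative, and 0.02 with NEUROG2AQ. Of 11 blood and endothelial markers, 6 to 7 lay at or below the array median on each array. Their median difference was -0.01 with NEUROG2, with 7 of 11 negative, and -0.09 with NEUROG2AQ, with 9 negative. The globins HBBR (-1.46 ± 0.62), HBZ (-1.24 ± 0.59) and HBAD (-1.08 ± 0.52) had the largest differences of the 11 with NEUROG2, and did not pass (adjusted p = 0.230, 0.304 and 0.309). HBBR and HBZ passed without control replicate 3 (adjusted p = 0.0379 and 0.0449). With NEUROG2AQ they differed by -1.72 ± 0.62 and -1.73 ± 0.59, without passing. Their part in the members' values was not tested. FLT1 passed with NEUROG2 (-0.50 ± 0.13), but its mean signals of 1.74 in control and 1.25 in NEUROG2 arrays lay below the array medians, and 2 other FLT1 probe sets did not pass. The FLT1 call was also lost on leaving out any of 5 arrays (control replicates 3 and 4, NEUROG2 replicates 1, 3 and 4), where adjusted p reached 0.110.

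Without control replicate 1 and NEUROG2AQ replicate 4 together, 8 of 10 member probe sets were past the threshold with NEUROG2 and none with NEUROG2AQ, and ZIC1 differed by -1.65 and PAX7 by -0.57 with NEUROG2. PAX7 with NEUROG2AQ was then -0.47 (adjusted p = 0.288). The difference of 3' and 5' control probe signals, which grows as RNA is degraded, ranged from 1.72 to 1.98 in control, 1.59 to 1.90 in NEUROG2 and 1.52 to 2.14 in NEUROG2AQ arrays. NEUROG2AQ replicates 1 to 3, at 2.03, 2.14 and 2.10, lay above every control and NEUROG2 array, and replicate 4, at 1.52, below them all. The part of this difference in the members' values was not tested.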

How the data were processed

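Each of the 12 Affymetrix chicken arrays was hybridised with labelled RNA amplified from 50 ng of total RNA. The deposited values are log2 signals per probe set. RMA was applied by the authors, per the submitters' processing notes, which name RMA, GCOS and affy with no version. The labels name no base of the logarithm, and 2 was inferred from the range, 0.49 to 13.97. Probes read only their part of a transcript, and RMA hides a shift shared by all genes.

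Of 38535 probe sets, the 37693 with chicken identifiers (starting "Gga") were tested and 842 left out. Platform symbols were updated by gene identifier through a RefSeq table (GRCg7b, names alone): 27166 probe sets had 1 symbol, 177 several and 10350 none. No sequence was used.

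The model, fitted in limma 3.58.1 (R 4.3.3) to the 12 arrays at once, had group as its term. P-values are two-sided. Paralog differences were compared by exact permutation tests (scipy 1.17.1). The fit was tested on simulated data. The members, lists and tests were chosen with earlier results of these data known. Named are all members, up to 4 genes past the threshold per list with the largest differences from control (the 2 largest where none passed), the 3 genes nearest each member past the threshold (no LOC numbers), and NEUROG2, SOX2, PAX6, TUBB3 and ELAVL4.

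Replicate numbers were not taken to pair the arrays, since the labels state no pairing and same-numbered arrays did not all deviate together. Alternatives changed the scaling, variance model, array weights, groups fitted or handling of several probe sets, dropped the dimmest 40% of probe sets, or dropped each array in turn.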

Additional observations from a re-analysis of the deposited data

Results flagged for a closer look

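In 2 of 30 groups of 4 arrays a single array stood apart from others that lay close together, where chance flags about 1 in 20. The gap to the next array made up 0.97 of the group's range in both. The ranges themselves were small: 0.36 for MSX1 and 0.23 for PAX7, against 0.47 and 0.30 in controls. MSX1 read 8.32 in NEUROG2 replicate 2, below the other NEUROG2 arrays at 8.67, 8.68 and 8.67, and below every control. PAX7 read 7.22 in NEUROG2AQ replicate 3, above the other NEUROG2AQ arrays at 6.99, 6.99 and 6.98, and still below every control.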

How the results depend on the processing

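Over 22 alternatives the count of member probe sets past the threshold was 6 to 8 with NEUROG2 and 5 to 7 against NEUROG2AQ. The lowest counts, 6 and 5, came from settings with 1 value per gene, which hold 7 member genes in place of 10 probe sets. Leaving out each array gave 7 to 8 and 6 to 7, and 0 with NEUROG2AQ. The only call of a member with NEUROG2AQ came from averaging a gene's probe sets, which gave 1 (PAX7). The main probe sets of ZIC1, ZIC2, MSX1, MSX2 and DLX5 kept their calls with NEUROG2 and against NEUROG2AQ in all 22, as did PAX7 with NEUROG2. Averaging its probe sets moved DLX5 to -0.56 with NEUROG2, and turned its sign with NEUROG2AQ, to 0.019. The PAX3 difference with NEUROG2 changed sign without control replicate 4, to 0.040, and ranged from -0.25 to 0.040 on leaving out each array. The second ZIC2 probe set with NEUROG2AQ changed sign without control replicate 1 and NEUROG2AQ replicate 4 together, to 0.027, and was between -0.12 and -0.02 on leaving out single arrays. Against NEUROG2AQ it passed in 7 of 20 alternatives.

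Of all probe sets, 2515 passed with NEUROG2, 1579 with 1 probe set per gene and 1438 with averaged ones, settings that test fewer features, and 1771 to 3253 on leaving out each array. Against NEUROG2AQ these were 2286, 1442, 1315 and 1744 to 2940. With NEUROG2AQ 25 passed, 44 with trend and robust, 8 with only the 2 groups fitted, 14 with averaged probe sets and 10 to 30 on leaving out each array. The cause was not tested. Deviations of same-numbered arrays correlated at -0.02 to 0.23 between NEUROG2 and control (3 of 4 pairs over 0.1), -0.30 to 0.20 between NEUROG2AQ and control and -0.11 to 0.16 between NEUROG2 and NEUROG2AQ. For arrays of different number these were -0.23 to 0.17, -0.41 to 0.42 and -0.11 to 0.11 in the same order. With the replicate block PTCH1 lost its call with NEUROG2 (adjusted p = 0.0717), VIM lost its call against NEUROG2AQ, FOXA2 and SNAI1 gained one with NEUROG2, NKX6-2 with NEUROG2AQ, and NOG and RFX4 against NEUROG2AQ, while 8, 0 and 6 member probe sets passed in the 3 comparisons. Leaving out each array, the ZIC1 minus ZIC2 difference with NEUROG2 ranged from -0.84 to -0.60. The 4 arrays a group and 9 residual degrees of freedom limit what can be called.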
